A study of Mus musculus with 60 samples.

Results

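The citric acid cycle enzymes described here are 9 mouse genes, Cs, Idh3a, Idh3b, Idh3g, Ogdh, Dlst, Suclg1, Sucla2 and Mdh2, taken as every probe set of the MOE430A and MOE430B arrays that the platform annotation pairs with such a symbol. They held 24 of the 45037 probe sets analysed, 17 on MOE430A and 7 on MOE430B. The samples were Mstn-null mice, which lack myostatin, a secreted inhibitor of muscle growth, and wild-type mice, both C57BL/6J. Tissue was the whole embryo at 13.5 d.p.c. (days post coitum), the hindquarters at 17.5 d.p.c. and the pectoralis muscle at d35 (postnatal day 35). Each genotype and time point had 5 pools of 3 animals, so that 30 pools on 2 chips gave 60 arrays. The sex of the animals and how the null allele was made were not given in the sources used here, and each pool averages its 3 animals. The level of Mstn itself was not analysed here.

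The citric acid cycle runs in the mitochondrial matrix, where it oxidises the acetyl group made from glucose and fatty acids and passes electrons to the respiratory chain. Citrate synthase (Cs) joins acetyl-CoA to oxaloacetate. The NAD-dependent isocitrate dehydrogenase, built from Idh3a, Idh3b and Idh3g, and the 2-oxoglutarate dehydrogenase complex, of which Ogdh and Dlst are parts, carry out the oxidative decarboxylations. Succinyl-CoA ligase (Suclg1 with Sucla2 or Suclg2) forms succinate, and malate dehydrogenase (Mdh2) restores oxaloacetate. In skeletal muscle these enzymes are known to be abundant in oxidative fibres and scarcer in fast glycolytic fibres.

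The promoters of Idh3b and Idh3g are printed because Idh3b gave the greatest genotype difference among the 9 genes. Idh3b and Idh3g, partners in a single enzyme, also had the highest correlation of the 36 pairs of members over all 30 pools, though not within every age (below). RefSeq promoters of build GRCm38.p6, of 300 bases each, were matched for 8 of the 9 genes. Each stretch below ends 2 bases past the start site and reads along the gene, on the minus strand, from chr2:130284450-130284599 for Idh3b and chrX:73786896-73787045 for Idh3g. Capitals mark AAGATGG (the YY1 core) and CCGGAAG (the ETS core, written CTTCCGG where it lies on the opposite strand).
Idh3b: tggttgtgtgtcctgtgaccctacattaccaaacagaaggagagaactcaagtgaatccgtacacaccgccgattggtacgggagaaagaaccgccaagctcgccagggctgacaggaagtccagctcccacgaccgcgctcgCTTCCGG
Idh3g: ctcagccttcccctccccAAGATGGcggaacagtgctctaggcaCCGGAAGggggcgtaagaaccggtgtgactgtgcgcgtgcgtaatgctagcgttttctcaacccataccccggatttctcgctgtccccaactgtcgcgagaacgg
Counted from the start site, the ETS core began at -5 in Idh3b and at -104 in Idh3g, and the YY1 core at -130 in Idh3g. Over 300 bases and both strands, CCGGAAG lay in a promoter of 3 of the 8 genes (the third was Dlst) and in 8.86% of all 32851 promoters, and AAGATGG in 1 of 8 and 6.34%. The estrogen-related receptor motif AAGGTCA and the NRF1 motif GCGCATG were each found in Ogdh alone, 1 of 8 genes and with 6 promoters in the table, against 4.72% and 3.91% of all promoters. No 2 of these matches to different motifs overlapped, and a match is a run of letters, not a measured binding site.

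Values are log2 intensities from robust multi-array analysis (RMA) as deposited, and a gene with several probe sets is led by its brightest. Differences are Mstn-null minus wild-type, the opposite direction to the WT/null ratios of the study, so a negative value means lower in Mstn-null. A probe set was called where the limma test gave a Storey q under 0.05 over all 45037 probe sets. Pools held separate animals, whether they shared litters was not given, and n is 5 pools per group throughout.

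In pectoralis at d35, probe sets of Idh3b, Dlst and Ogdh were lower in Mstn-null muscle, at 0.573-fold to 0.898-fold of wild-type in those called, while Mdh2 and Sucla2 gave differences near 0. Of the 24 probe sets, 5 were called lower and 0 higher, against 2.5% lower and 2.08% higher (4.58% in all) of all probe sets. The difference was below 0 for 19 of 24, against 44% of all probe sets, and the groups did not overlap for 4 of 24, all lower, against 2.48% of all probe sets. An unadjusted p under 0.05 was found for 10 of 24, all lower, against 8.63% of all probe sets. By brightest probe set, 8 of the 9 genes were below 0, with a median of -0.13 against 0.014 over all probe sets, and 2 were called.

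Idh3b encodes a structural subunit of the NAD-dependent isocitrate dehydrogenase and lies at chr2:130279309-130284451. Its brightest probe set, 1418886_s_at, read 11.38, 11.49, 11.60, 11.58 and 11.71 in Mstn-null pools, against 11.85, 11.76, 11.83, 11.70 and 11.94 in wild-type pools. The groups met only where Mstn-null pool 5 lay just above wild-type pool 4. The means were 11.55 ± 0.12 in Mstn-null and 11.82 ± 0.091 in wild-type (SD, n = 5 each), a difference of -0.26 (SE 0.065, q = 0.0305, 0.832-fold). The probe set 1418885_a_at read 8.23, 8.89, 9.01, 9.03 and 9.46 in Mstn-null pools, against 9.60, 9.96, 9.97, 9.40 and 9.71 in wild-type pools. Mstn-null pool 1 was the lowest of the 10, and only Mstn-null pool 5 reached into the wild-type range. Its means were 8.92 ± 0.45 in Mstn-null and 9.73 ± 0.24 in wild-type, a difference of -0.80 (SE 0.18, q = 0.0201, 0.573-fold), and its SDs exceeded those of the brighter probe set. The suffixes tell the 2 apart: an _a_ set is designed to match several transcripts of 1 gene, and an _s_ set may also match other genes, so the brighter value could include a near-identical copy. The remaining probe set, 1441271_at, differed by -0.15 (q = 0.346).

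The other subunits of that enzyme gave smaller differences that did not pass the test. Idh3a, the catalytic subunit (1432016_a_at), read 11.86, 11.94, 11.94, 12.05 and 12.18 in Mstn-null pools, against 12.27, 11.96, 12.09, 12.14 and 12.17 in wild-type pools. Idh3g, a regulatory subunit encoded on the X chromosome (1416789_at), read 11.65, 11.74, 11.86, 11.76 and 11.83 in Mstn-null pools, against 11.96, 11.82, 11.82, 11.87 and 12.10 in wild-type pools. In both genes the upper Mstn-null pools lay among the wild-type pools. The difference was -0.13 (SE 0.07, q = 0.225) for Idh3a and -0.15 (SE 0.063, q = 0.152) for Idh3g, whose other probe set gave -0.14 (q = 0.126). The 3 other probe sets of Idh3a disagreed with the brightest in sign, at 0.0045 to 0.053, the farthest being 1447701_x_at (q = 0.411). Beside the X-linked Idh3g, Xist, the RNA that silences an X chromosome in females, read 8.12 to 9.09 in Mstn-null pools, against 9.001 to 9.23 in wild-type pools (difference -0.50, q = 0.0499), and the dim Y-linked Eif2s3y differed by 0.78 (q = 0.0353). The part of a different mix of sexes in these values was not tested.

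Both members from the 2-oxoglutarate dehydrogenase complex had a probe set that was called lower. Dlst, the succinyltransferase core of the complex (chr12:85110822-85134091), read 10.75, 10.83, 10.84, 10.80 and 10.82 in Mstn-null pools, against 10.96, 10.91, 11.004, 10.996 and 10.93 in wild-type pools by its brightest probe set 1423710_at. The groups did not overlap, and the spread within each was narrow. Its means were 10.81 ± 0.037 in Mstn-null and 10.96 ± 0.039 in wild-type, a difference of -0.16 (SE 0.043, q = 0.0465). On MOE430B, Dlst 1437775_at read 6.50, 6.69, 6.78, 6.61 and 6.88 in Mstn-null pools, against 7.20, 7.14, 7.11, 6.92 and 6.91 in wild-type pools. These groups did not overlap either, though Mstn-null pool 5 and wild-type pool 5 nearly met. Its means were 6.69 ± 0.15 in Mstn-null and 7.06 ± 0.14 in wild-type, a difference of -0.37 (SE 0.079, q = 0.0167, 0.776-fold). The other 2 probe sets of Dlst gave -0.073 and -0.024 (q = 0.396 and 0.597).

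Ogdh, the decarboxylating component that sets the pace of the complex (chr11:6291597-6359094), was called by its MOE430B probe set only. That probe set, 1445632_at, read 7.38, 7.55, 7.26, 7.27 and 7.47 in Mstn-null pools, against 7.66, 7.68, 7.76, 7.69 and 7.56 in wild-type pools. Every Mstn-null pool was below every wild-type pool. Its means were 7.39 ± 0.12 in Mstn-null and 7.67 ± 0.074 in wild-type, a difference of -0.29 (SE 0.063, q = 0.0188, 0.821-fold). The brightest, 1451274_at, read 11.65, 11.69, 11.62, 11.42 and 11.79 in Mstn-null pools, against 11.81, 11.79, 11.82, 11.83 and 11.76 in wild-type pools. Here Mstn-null pool 5 lay among the tightly grouped wild-type pools and Mstn-null pool 4 far below them. The difference was -0.17 (SE 0.061, q = 0.106), of the same sign and not past the threshold.

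For citrate synthase no probe set was called, and the genotypes lay apart in the brightest probe set but overlapped in the other 2. Cs 1450667_a_at read 12.43, 12.47, 12.43, 12.39 and 12.49 in Mstn-null pools, against 12.53, 12.53, 12.53, 12.59 and 12.58 in wild-type pools. The groups did not overlap, with a difference of -0.11 (SE 0.043, q = 0.127) that did not pass the test, and its other 2 probe sets gave -0.13 and -0.025 (q = 0.131 and 0.548).

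For succinyl-CoA ligase and malate dehydrogenase no difference was resolved. Suclg1, the alpha subunit (1415891_at, its only probe set), read 11.26, 11.30, 11.31, 11.44 and 11.50 in Mstn-null pools, against 11.48, 11.43, 11.45, 11.41 and 11.49 in wild-type pools. Sucla2, the ADP-forming beta subunit (1452206_at), read 12.12, 12.25, 12.14, 12.15 and 12.33 in Mstn-null pools, against 12.21, 12.10, 12.13, 12.24 and 12.16 in wild-type pools. Mdh2 (1416478_a_at) read 13.10, 13.12, 13.17, 13.18 and 13.17 in Mstn-null pools, against 13.21, 12.95, 13.08, 13.21 and 13.30 in wild-type pools. For Suclg1, 3 Mstn-null pools were below all wild-type pools, Mstn-null pool 4 lay among them and Mstn-null pool 5 just above them. For Sucla2 and Mdh2 the groups lay across each other. The differences were -0.091 for Suclg1 (95% interval -0.21 to 0.025, q = 0.262), 0.032 for Sucla2 (-0.084 to 0.15, q = 0.518) and -0.0059 for Mdh2 (-0.14 to 0.13, q = 0.626). These intervals include a difference as negative as that of Dlst 1423710_at for Suclg1 but not for Mdh2 1416478_a_at or Sucla2 1452206_at. The other Mdh2 probe set, 1433984_a_at, gave -0.030 (-0.17 to 0.11, q = 0.546), an interval that does include it.

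**Figure D1:**
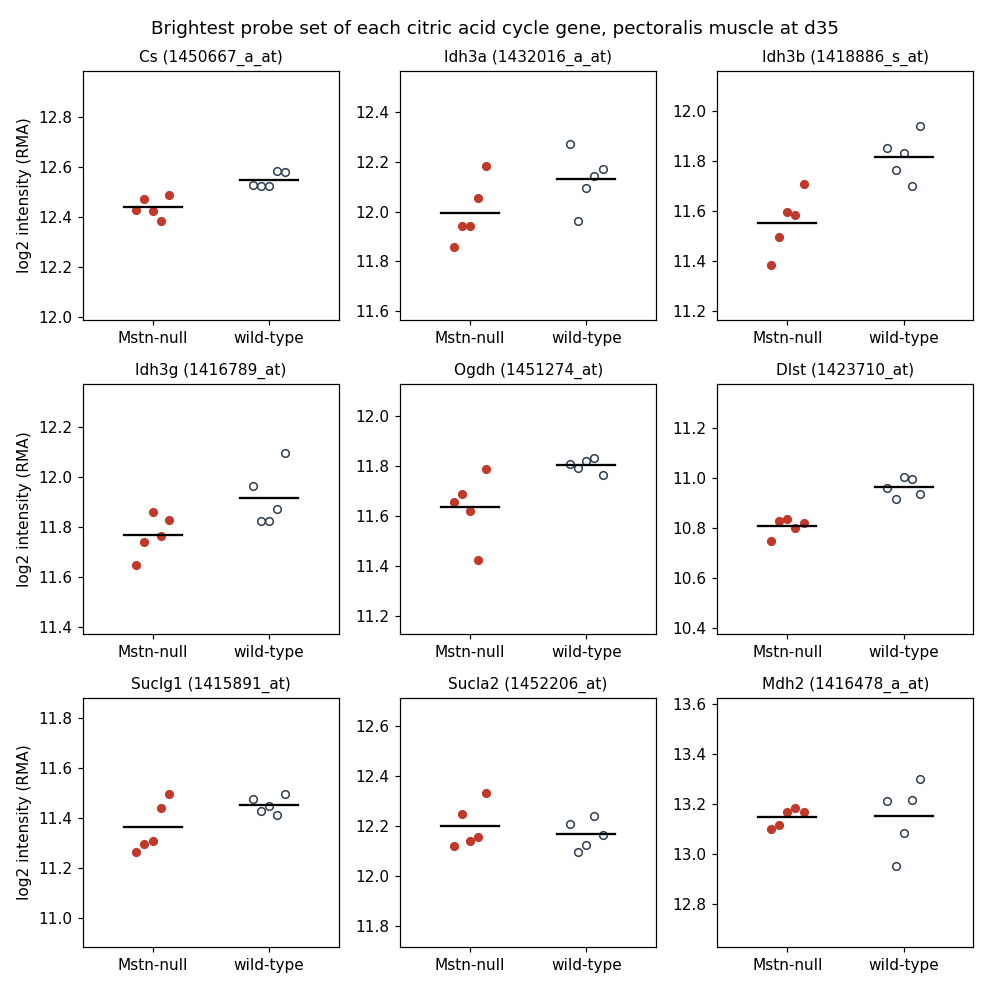
Log2 intensity (RMA, y axis, each panel spanning 1 log2 unit) of the brightest probe set of each of the 9 genes in pectoralis muscle at d35, with 5 Mstn-null pools (filled points, left) and 5 wild-type pools (open points, right) and a line at each mean. The groups do not overlap for Cs and Dlst and barely meet for Idh3b, whereas they lie across each other for Sucla2 and Mdh2.

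The d35 calls moved with single pools and with other measures of the pools. Without wild-type pool 3 the count of 5 became 0, while 777 probe sets were still called in all. Without Mstn-null pool 3 it was 2, and without Mstn-null pool 1, 2 or 4 or wild-type pool 1 or 5 it was 3. The call of Dlst 1423710_at was lost whichever of the 10 pools was left out (q = 0.0598 to 0.134), and that of Idh3b 1418886_s_at in 7 of 10 cases (q = 0.0186 to 0.0883 over all 10). The other 3 kept their calls in 8 or 9 of 10. All 5 differences stayed below 0 in each case. The actin 3' minus 5' control value, a sign of RNA quality, was 0.115 to 0.244 in Mstn-null pools, against 0.171 to 0.582 in wild-type pools, of which pools 2 and 3 were highest (0.582 and 0.377). The Gapdh 3' minus 5' value, another such control, also overlapped. On MOE430A it was 0.0024 to 0.157 in Mstn-null pools, against 0.0411 to 0.175 in wild-type pools. With wild-type pools 2 and 3 left out, 0 member probe sets were called and the differences of the 5 ran from -0.64 (Idh3b 1418885_a_at) to -0.16 (Dlst 1423710_at). With the actin value as a covariate, an alternative added after the data had been seen, the count was also 0 and the same 2 probe sets gave -0.68 and -0.17.

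Markers of fat cells and of endothelium moved with genotype at d35. White adipocyte markers had 1 of 4 measured genes called lower and brown adipocyte markers 2 of 3, led by Elovl3 (-0.52, q = 0.00397), Cidec (-0.98, q = 0.0144) and Cidea (-0.81, q = 0.0324). The defining genes Adipoq and Ucp1 were far above the dim range, with means of 11.03 and 11.002 in Mstn-null and 11.70 and 11.74 in wild-type. Both overlapped between the genotypes and were not called (q = 0.0724 and 0.0865), and Lep was dim. The mean level of these 7 markers ran from 8.19 to 9.23 in Mstn-null pools, against 9.10 to 9.48 in wild-type pools. After subtracting each genotype's mean, it correlated over the 10 pools with Idh3b 1418885_a_at (r = 0.94), Dlst 1437775_at (0.837), Idh3b 1418886_s_at (0.738), Dlst 1423710_at (0.444) and Ogdh 1445632_at (0.349). The mean of 7 slow fibre markers, which differed most between genotypes, gave r of -0.223, -0.0977, 0.175, 0.145 and -0.443 with the same probe sets in that order. With the brightest probe sets that were not called, the mean adipocyte marker level gave r from -0.102 (Mdh2) to 0.629 (Suclg1). With this level as a covariate, also added after the data had been seen, 0 member probe sets were called and 58 in all. The difference was then -0.085 for Idh3b 1418885_a_at, -0.096 for Idh3b 1418886_s_at, -0.12 for both Dlst probe sets and -0.21 for Ogdh 1445632_at. The covariate itself differs between genotypes, so genotype and fat cell marker level cannot be fully told apart, and in bulk muscle fewer cells of a type and less RNA per cell cannot be told apart either. Endothelial markers had 2 of 4 called lower, Tek (-0.33, q = 0.0254) and Kdr (-0.20, q = 0.0489), all 4 below 0, and their mean was 7.96 to 8.15 in Mstn-null pools, against 8.25 to 8.44 in wild-type pools. Macrophage markers had 0 of 5 called, all 5 below 0 with a median of -0.25, and a mean of 7.67 to 8.07 in Mstn-null pools, against 7.94 to 8.64 in wild-type pools. Centred in the same way, the mean of the 9 brightest probe sets gave r of -0.878 with macrophage and -0.132 with endothelial markers within d35. It gave 0.548 with white and 0.565 with brown adipocyte markers. With macrophage markers the sign was opposite within 17.5 d.p.c. (0.872). The part of the endothelial or macrophage markers in the members' values was not tested. Cardiac, liver, erythroid and neuron markers had 0 called at this age.

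**Figure D2:**
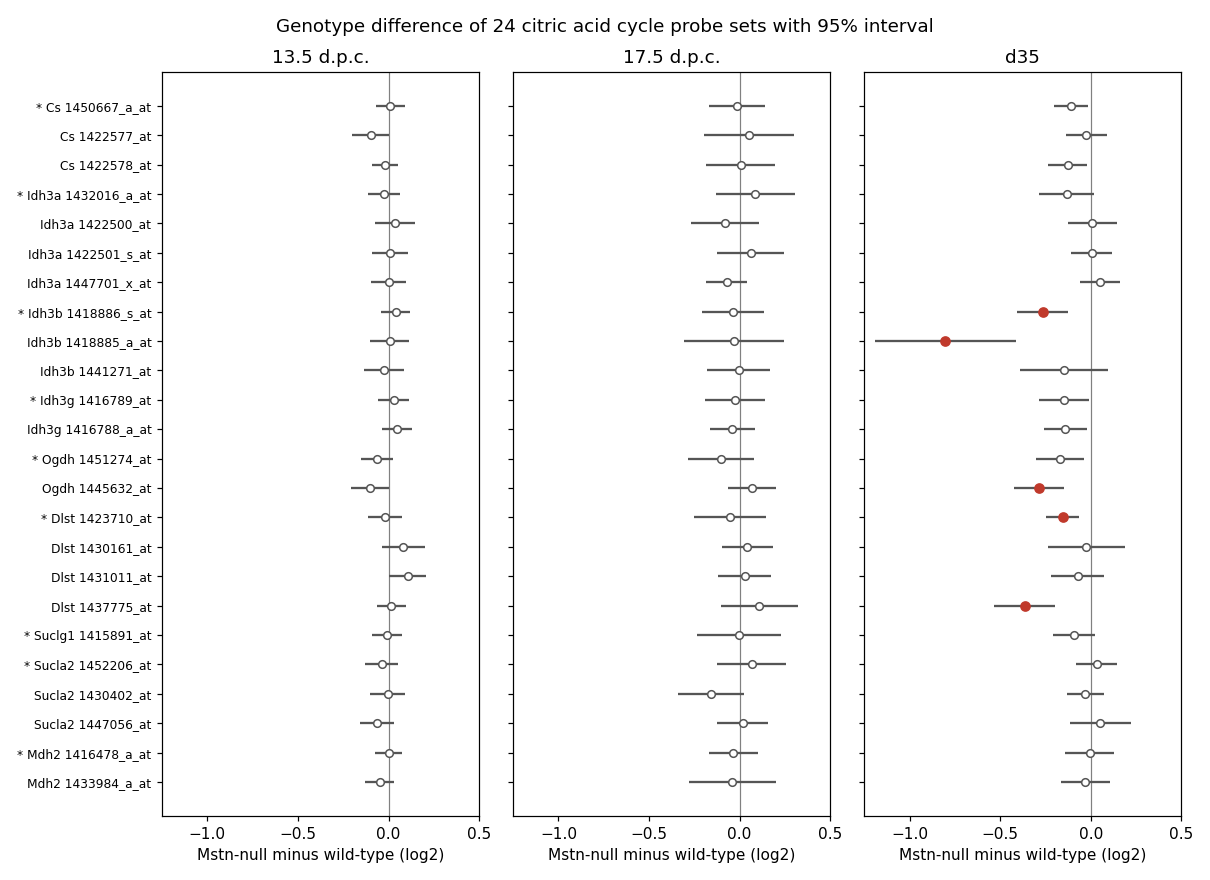
Genotype difference (Mstn-null minus wild-type, log2, x axis) with its 95% interval for the 24 probe sets at each of the 3 time points (panels), where an asterisk marks the brightest probe set of a gene. Filled points are the 5 called at a Storey q under 0.05, all at d35 and all below 0, and open points were not called.

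In embryos of 13.5 d.p.c. no member was called, 0 of 24 against 0.54% of all probe sets. The brightest probe sets ran from -0.065 (Ogdh, q = 0.441) to 0.040 (Idh3b, q = 0.554), with a median of -0.0086 against -0.00052 over all. Cs (0.010), Idh3g (0.028) and Mdh2 (0.00074) were above 0, and Idh3a (-0.025), Dlst (-0.020), Suclg1 (-0.0086) and Sucla2 (-0.037) below. The 95% interval of Cs was -0.069 to 0.089. Just 1 of 24 had an unadjusted p under 0.05, against 11.3% of all, Dlst 1431011_at, which read 7.65, 7.52, 7.40, 7.52 and 7.49 in Mstn-null pools, against 7.40, 7.36, 7.36, 7.50 and 7.44 in wild-type pools. Mstn-null pools were higher on average by 0.10 with overlap (q = 0.319), and this probe set was the one of Dlst farthest in sign from the brightest. Averaged over both chips, the actin 3' minus 5' value did not overlap between the genotypes at this age. It was 0.247 to 0.332 in Mstn-null pools, against 0.132 to 0.224 in wild-type pools. The Gapdh 3' minus 5' value did overlap on both chips. On MOE430A it was 0.213 to 0.321 in Mstn-null pools, against 0.0598 to 0.289 in wild-type pools. With the actin value as a covariate, 0 members and 1 probe set in all were called, and the differences of Dlst (0.0545), Ogdh (0.0194), Mdh2 (-0.0271) and Idh3g (-0.00519) changed sign.

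In hindquarters at 17.5 d.p.c. no member was called, as was no probe set at all (0% of 45037), and 0 of 24 members had an unadjusted p under 0.05, against 2.43% of all. The brightest probe sets ran from -0.10 (Ogdh) to 0.086 (Idh3a), with a median of -0.025 against -0.0011 over all. Sucla2 (0.066) was also above 0, and Cs (-0.014), Idh3b (-0.035), Idh3g (-0.025), Dlst (-0.053), Suclg1 (-0.0042) and Mdh2 (-0.035) were below. All had q = 1. The intervals were wide, -0.13 to 0.30 for Idh3a and -0.24 to 0.23 for Suclg1, and that of Ogdh (-0.29 to 0.077) still included a difference of the size called for Idh3b 1418886_s_at at d35. The mean of 7 liver markers varied widely over these pools and was 8.67 to 12.78 in Mstn-null pools, against 11.65 to 13.48 in wild-type pools. Its part in the members' values was not tested.

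The genotype difference itself was compared between ages in a single limma fit of all 30 pools. It was more negative at d35 than at 13.5 d.p.c. for Idh3b 1418885_a_at, by -0.81 (SE 0.21, q = 0.0425), the only member of 24 called, against 1.17% of all probe sets. Against 17.5 d.p.c. it was more negative for Dlst 1437775_at, by -0.47 (SE 0.11, q = 0.031), and for Ogdh 1445632_at, by -0.36 (SE 0.083, q = 0.0291), 2 of 24 against 0.715% of all. The corresponding values of Idh3b 1418886_s_at were -0.30 (q = 0.0814) against 13.5 d.p.c. and -0.23 (q = 0.213) against 17.5 d.p.c. For no brightest probe set did the difference pass the test. When each pool in turn was left out, an alternative added after the data had been seen, the count of 1 ranged over 0 to 3 and was 0 without any of the 10 pools of 13.5 d.p.c., Mstn-null pools 1, 2 and 3 or wild-type pools 2, 3 and 5 of d35. The count of 2 also ranged over 0 to 3 and was 0 without Mstn-null pool 1 or 4 or wild-type pool 2 or 3 of d35. It was 1 without Mstn-null pool 1 or wild-type pool 1 or 2 of 17.5 d.p.c., or Mstn-null pool 3 or wild-type pool 1 of d35. Dlst 1437775_at and Ogdh 1445632_at are on MOE430B, where the array of wild-type pool 1 of 17.5 d.p.c. stood apart. Its median correlation with the other arrays of that chip and age was 0.9525, against 0.9922 to 0.994 for those others.

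The probe sets of Idh3b and of Dlst did not share a course over the ages. Tissue and age change together between the time points, and the medians of the arrays differed between them, so levels were followed by rank within the array. The brightest probe set of each of the 9 genes ranked higher in all 10 pools of d35 than in any pool of the embryonic ages. Among these brightest probe sets Ogdh moved farthest, with a median percentile of 74.7 at 13.5 d.p.c., 85.4 at 17.5 d.p.c. and 98.3 at d35. A dimmer probe set of Idh3a, 1422500_at, moved farther, with medians of 37.6, 46.8 and 92.1. Mdh2 had medians of 97.6, 98.1 and 99.7. Idh3g, Suclg1 and Dlst did not separate the embryonic ages, their pools sharing or touching ranks. By contrast Dlst 1437775_at had medians of 87, 78.6 and 69.9, while Dlst 1423710_at had 88.6, 90.6 and 96.6. Idh3b 1418885_a_at had medians of 89.8, 88.9 and 89.6, with a range at d35 of 77 to 93.3, while Idh3b 1418886_s_at had 91.4, 92.9 and 98.2.

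**Figure D3:**
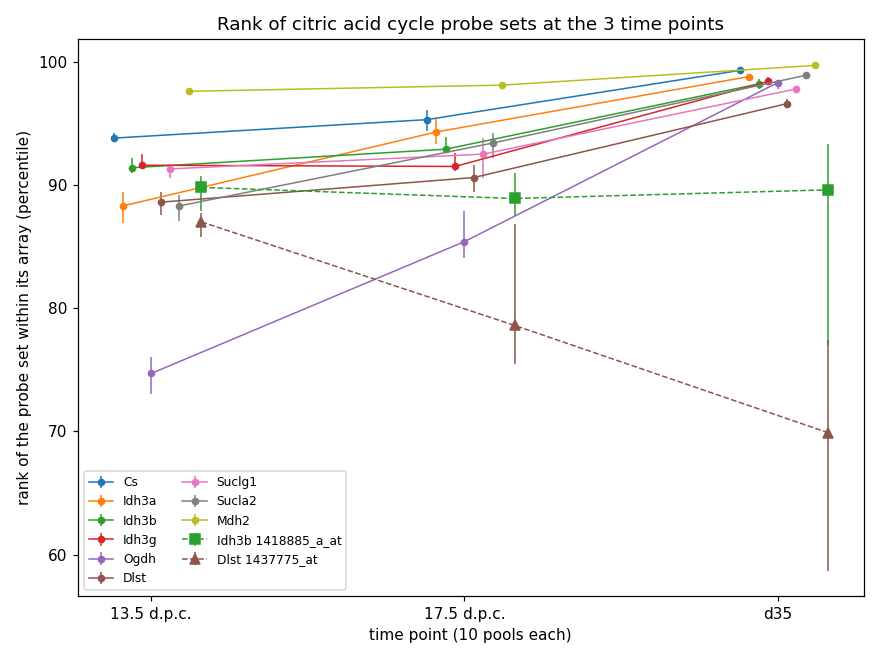
Rank of a probe set within its array (percentile, y axis, median with bars to the lowest and highest of 10 pools) at the 3 time points for the brightest probe set of each gene (circles, solid lines) and for Idh3b 1418885_a_at (squares) and Dlst 1437775_at (triangles, dashed lines). The solid lines all end above 96 at d35, whereas Dlst 1437775_at ends at 69.9 and Idh3b 1418885_a_at spans 77 to 93.3.

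The genotypes overlapped at the earlier ages in the called probe sets that were not the brightest. Idh3b 1418885_a_at at 13.5 d.p.c. read 10.29, 10.26, 10.45, 10.32 and 10.24 in Mstn-null pools, against 10.30, 10.16, 10.34, 10.38 and 10.34 in wild-type pools. At 17.5 d.p.c. it read 10.41, 10.42, 10.11, 9.83 and 9.95 in Mstn-null pools, against 10.39, 9.95, 10.21, 10.08 and 10.24 in wild-type pools. The groups lay across each other at both ages. Dlst 1437775_at at 17.5 d.p.c. read 8.35, 7.85, 7.96, 7.78 and 7.92 in Mstn-null pools, against 7.78, 7.78, 7.89, 7.92 and 7.94 in wild-type pools. Mstn-null pool 1 stood above the other 9 pools. Ogdh 1445632_at at 17.5 d.p.c. read 7.49, 7.32, 7.43, 7.51 and 7.24 in Mstn-null pools, against 7.31, 7.29, 7.36, 7.37 and 7.33 in wild-type pools. Its wild-type pools were close together inside the Mstn-null range. At 13.5 d.p.c. it read 7.57, 7.54, 7.54, 7.41 and 7.49 in Mstn-null pools, against 7.59, 7.52, 7.76, 7.65 and 7.55 in wild-type pools. The difference of -0.10 (95% interval -0.21 to 0.0033, q = 0.348) was the most negative of the 24 at that age, and the change from there to d35 did not pass the test (-0.18, q = 0.305).

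**Figure D4:**
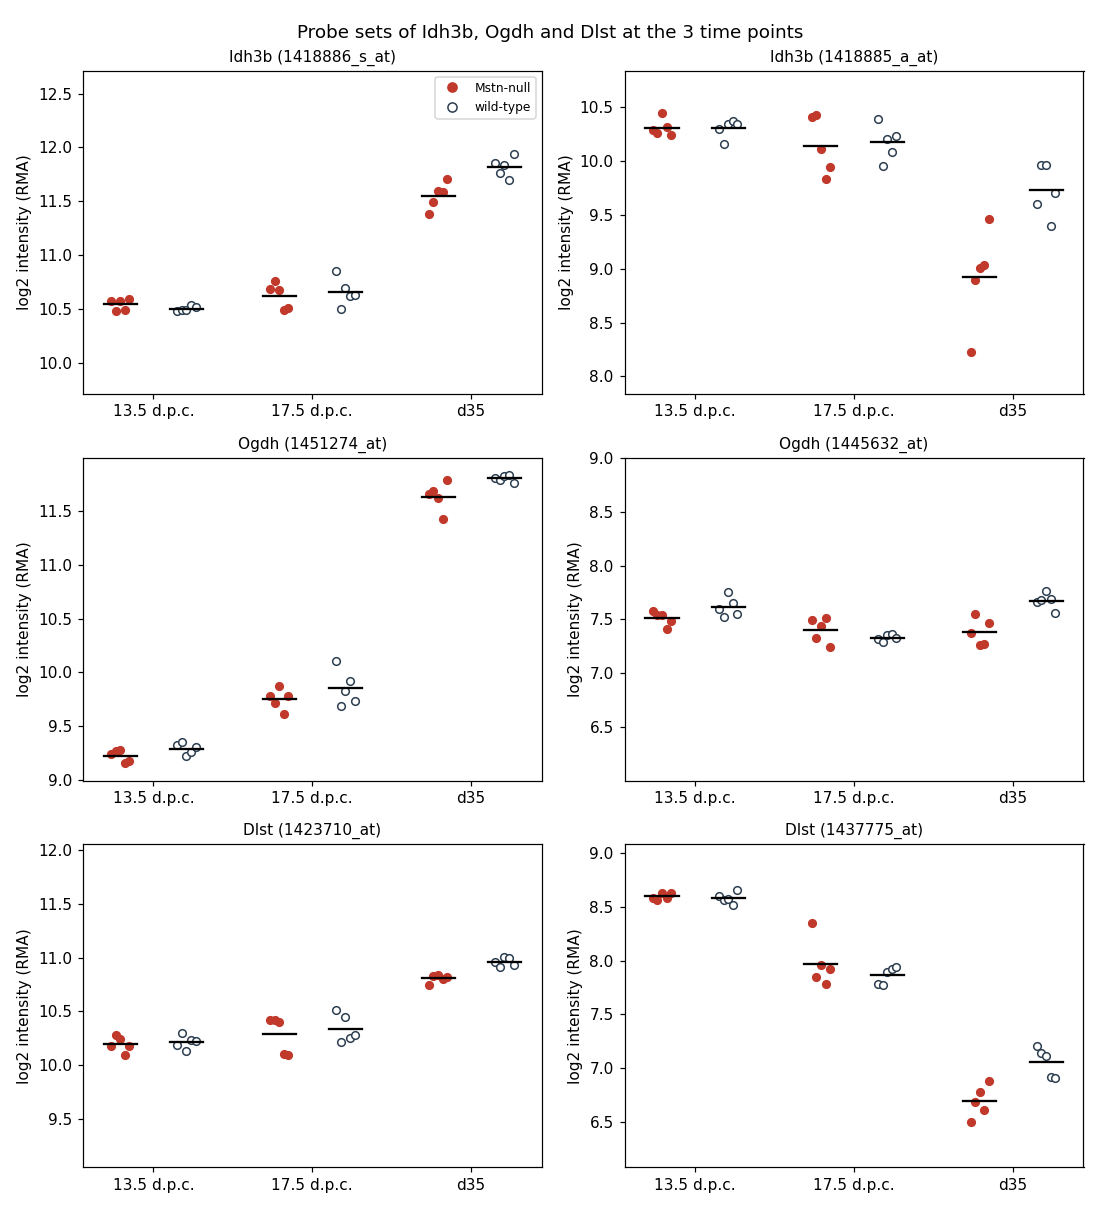
Log2 intensity (RMA, y axis, each panel spanning 3 log2 units) of the brightest probe set (left) and of another that was called at d35 (right) of Idh3b, Ogdh and Dlst in each Mstn-null pool (filled) and wild-type pool (open) at the 3 time points, with a line at each mean. At d35 the right-hand panels show lower Mstn-null means of 8.92, 7.39 and 6.69, against 9.73, 7.67 and 7.06 in wild-type.

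The remaining enzymes of the cycle at d35 gave differences of like size without a call. Of 8 measured genes 0 were called and 7 were below 0, with a median of -0.17. Among them Sdha, the flavoprotein of succinate dehydrogenase, had means of 11.85 ± 0.13 in Mstn-null and 12.07 ± 0.11 in wild-type (-0.21, q = 0.0849), Idh2, the NADP-dependent mitochondrial isocitrate dehydrogenase, differed by -0.32 (q = 0.108), Suclg2 by -0.19 (q = 0.0984) and Dld, the third part of the 2-oxoglutarate complex, by -0.26 (q = 0.199). Sdhc was the exception at 0.050 (q = 0.435). Enzymes that feed or drain the cycle inside mitochondria had 0 of 6 called and a median of -0.078.

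Outside the matrix, 3 of 11 cytosolic counterparts and carriers were called, all lower, with a median of -0.24. These were Mdh1, the cytosolic malate dehydrogenase (12.86 ± 0.034 in Mstn-null and 13.10 ± 0.10 in wild-type, -0.24, q = 0.021), Idh1 (-0.27, q = 0.0345) and Aco1 (-0.42, q = 0.037). Mdh1 thus passed the test where its mitochondrial relative Mdh2 did not, and the difference between the 2 genes was not tested. Beta-oxidation, which supplies acetyl-CoA to the cycle, had 10 of 11 genes called lower with a median of -0.36, among them Acadl (-0.52, q = 0.000573), Hadhb (-0.42, q = 0.00432), Hadha (-0.36, q = 0.00437) and Eci1 (-0.43, q = 0.00636). The respiratory chain had 1 of 19 called, Cox4i1 (-0.16, q = 0.0438), all 19 below 0 and a median of -0.10. Glycolysis had 0 called lower and 2 of 9 higher, Pkm (0.20, q = 0.0193) and Tpi1 (0.21, q = 0.0324), with a median of 0.14. Slow fibre markers had 7 of 7 called lower, with a median of -2.3 and pool means of 8.34 to 9.30 in Mstn-null and 10.63 to 11.25 in wild-type. The 8 skeletal muscle markers identified the tissue, with a mean of 14.01 to 14.04 in Mstn-null pools, against 13.84 to 13.94 in wild-type pools. Of these, Myh4 (0.58, q = 0.00126) and Actn3 (0.20, q = 0.0166), of fast fibres, were called higher and Myh1 (-0.20, q = 0.0272), a fast myosin too, lower. At the embryonic ages no gene of these metabolic lists was called. The lists were chosen with earlier results of these data known, and their counts are descriptions.

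**Figure D5:**
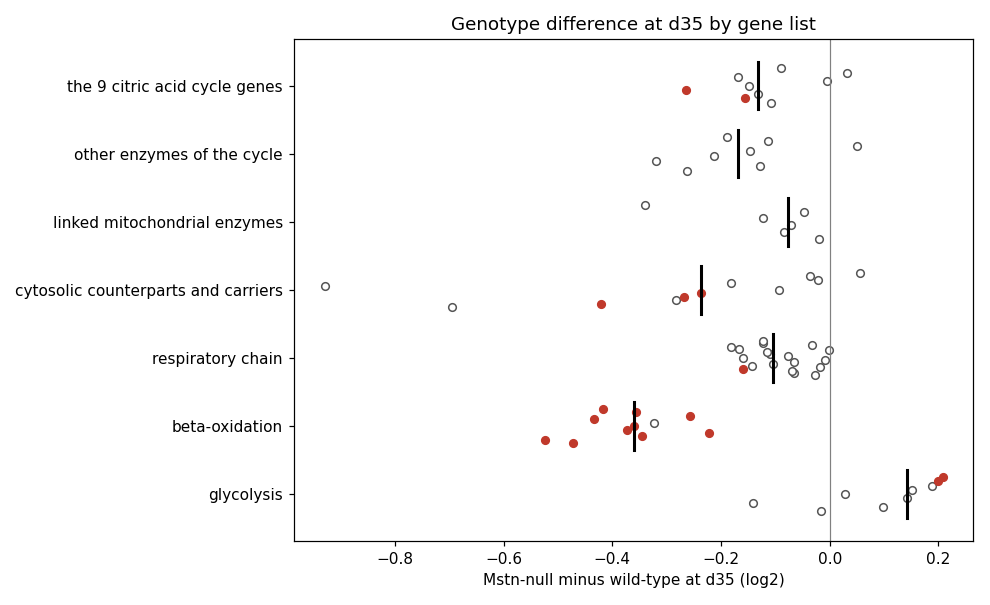
Genotype difference at d35 (Mstn-null minus wild-type, log2, x axis) of each gene, by its brightest probe set, in 7 lists (rows), with filled points for genes called at a Storey q under 0.05, open points for the rest and a bar at the list's median. The 9 citric acid cycle genes centre on -0.13, between glycolysis at 0.14 and beta-oxidation at -0.36.

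Within groups the members varied together to different degrees. After subtracting the mean of each genotype and time point, the brightest probe sets gave 36 pairwise correlations over the 30 pools, of which 31 were positive, with a median of 0.467. The highest was Idh3b with Idh3g (r = 0.873), and it was 0.757 within 13.5 d.p.c., 0.961 within 17.5 d.p.c. and 0.783 within d35. Within single ages this pair was the highest at 17.5 d.p.c. only. Dlst with Ogdh was highest within 13.5 d.p.c. (0.806) and Suclg1 with Idh3b within d35 (0.82). The lowest was Suclg1 with Cs (-0.377). Against the mean of the other 8 genes, Idh3a gave 0.817, Idh3b 0.792, Idh3g 0.777, Dlst 0.712, Sucla2 0.665, Suclg1 0.583, Ogdh 0.448, Mdh2 0.43 and Cs 0.136. The median was 0.0636 within 13.5 d.p.c., 0.606 within 17.5 d.p.c. and 0.355 within d35. The 5 genes most like the mean of the members were Ubxn2a (0.917), Hspa9, a mitochondrial chaperone (0.908), Ppm1a (0.891), Ndufa9, a complex I subunit (0.887), and Afg3l2, a mitochondrial protease (0.883). List means followed the members at 0.889 for the respiratory chain, 0.882 for the other enzymes of the cycle, 0.671 for beta-oxidation and 0.262 for glycolysis. Points in these correlations share arrays, tissue composition and RNA quality, and the hindquarters pools span the widest range.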

How the data were processed

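Per the labels and the study's methods, RNA of 3 animals was pooled, labelled with biotin and hybridised to Affymetrix MOE430A and MOE430B chips. The authors normalized the arrays with RMA (R package affy, version not given in the sources used here). The deposited values are log2 intensities, from 2.78 to 15.27, and their number of arrays limits the precision. Medians of the arrays lay close together within a time point and differed between time points, so levels were tested within a time point only. On MOE430A they were 8.05 to 8.09 at 13.5 d.p.c., 7.78 to 7.86 at 17.5 d.p.c. and 6.88 to 6.94 at d35. The 64 control probe sets of each chip were left out, as was a second copy of the 100 probe sets shared by both chips, which left 45037. Symbols came from the platform annotation, with 34945 probe sets of a single symbol, 932 of several and 9160 of none. No column was left unused (0) and no arrays were identical (0).

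Genotypes were compared within each time point, as in the methods, with limma 3.58.1 in R 4.3.3 (lmFit, eBayes), and Storey q values were taken over all probe sets (lambda 0.05 to 0.95 in steps of 0.05). Ages were compared by an interaction contrast in a fit of all 6 groups. A probe set is called dim when its mean is in the lowest 25 percent of its chip. All members were named by their brightest probe set (mean over 30 pools) and by any other probe set called. Of other lists, up to 4 called genes were named by smallest q. Cell type markers and their lists were set as Ckm, Acta1 and other genes of muscle, fat, liver, endothelium, blood and nerve. The members and lists were chosen with earlier results of these data known. The fits were also run on simulated data with independent noise for each probe set, which cannot test for effects shared by a whole pool. Alternatives were Benjamini-Hochberg adjustment, each chip alone, a filter on dim probe sets, further quantile normalization, trend and robust options, a single fit, a replicate block, gene means, leaving out pools, and 2 covariates added later. Figures were drawn with matplotlib 3.10.9. Protein sequences were not analysed here.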

Additional observations from a re-analysis of the deposited data

Results flagged for a closer look

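In 5 of 144 groups of 5 pools, 1 pool lay far from the others, its gap to the nearest pool divided by the range of the group exceeding 0.71. Chance flags about 1 in 20 groups. Mstn-null pool 3 of 13.5 d.p.c. was low for Idh3a 1422501_s_at (8.36, the others 8.52 to 8.57, gap share 0.762). Mstn-null pool 4 of 13.5 d.p.c. was high for Dlst 1430161_at (6.84, the others 6.56 to 6.63, 0.748). Mstn-null pool 2 of 13.5 d.p.c. was low for the dim Idh3b 1441271_at (5.49, the others 5.66 to 5.69, 0.843). Mstn-null pool 5 of d35 was high for Dlst 1430161_at (5.95, the others 5.57 to 5.64, 0.823), and wild-type pool 4 of d35 was high for the dim Sucla2 1430402_at (4.67, the others 4.56 to 4.59, 0.744). None of these 5 is a called probe set.

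The genotype difference (Mstn-null minus wild-type) itself differed between ages for 3 probe sets by the limma interaction test. It was more negative at d35 than at 13.5 d.p.c. for Idh3b 1418885_a_at (-0.81, q = 0.0425), and more negative at d35 than at 17.5 d.p.c. for Dlst 1437775_at (-0.47, q = 0.031) and Ogdh 1445632_at (-0.36, q = 0.0291). The ages also differ in tissue, and age and tissue cannot be told apart.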

How the results depend on the processing

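The 0 calls at the embryonic ages held under every alternative run. The 5 calls at d35 became 4 with Benjamini-Hochberg adjustment (Dlst 1423710_at lost, adjusted p = 0.0723), further quantile normalization or a single fit, 3 with trend and robust options, 2 with gene means (Idh3b and Ogdh in place of probe sets), 0 to 4 when a pool was left out, 0 without wild-type pools 2 and 3, and 0 with the adipocyte or the actin covariate. The median difference of the members kept its sign at d35 in each alternative for which it was recomputed (-0.167 to -0.103 without 1 pool). It was not recomputed with the adipocyte or the actin covariate. At 13.5 d.p.c. it turned to 0.011 after further quantile normalization and ran from -0.0152 to 0.00469 without 1 pool, and at 17.5 d.p.c. from -0.05 to 0.0143. The count that differed between d35 and 13.5 d.p.c. (1) was 0 with Benjamini-Hochberg adjustment, 2 with quantile normalization and 0 to 3 without 1 pool, and that against 17.5 d.p.c. (2) was 0 to 3 without 1 pool. Same-numbered pools of the genotypes deviated together in some pairs and not in others (r from -0.199 to 0.485). It was over 0.1 in 3 of 5 pairs at 17.5 d.p.c., all 3 best matched to their own number, in 1 of 5 at d35 and in 0 of 5 at 13.5 d.p.c., so the numbers were not taken to pair the pools. With the replicate number as a block the count at d35 was 4 (Dlst 1423710_at lost, q = 0.101), and 0 at the other ages, with 1854 probe sets called in all at d35.

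Single members that had not been called changed sign. Over the 21 alternatives at d35 Dlst 1423710_at kept its call in 3. At 13.5 d.p.c. gene means gave -0.0245 for Mdh2, 0.0458 for Dlst, 0.00546 for Idh3a and -0.0364 for Cs, quantile normalization gave 0.011 for Suclg1, and the actin covariate gave -0.0271 for Mdh2, -0.00519 for Idh3g, 0.0545 for Dlst and 0.0194 for Ogdh. At 17.5 d.p.c. gene means gave 0.0317 for Dlst, -0.0014 for Idh3a, 0.0149 for Cs and -0.0249 for Sucla2, and quantile normalization 0.00627 for Suclg1. At d35 quantile normalization gave 0.0404 for Mdh2, the adipocyte covariate 0.0102 for Suclg1, the actin covariate -0.0106 for Sucla2, and leaving out wild-type pools 2 and 3 gave -0.00538 for Sucla2. Without 1 pool, signs turned within these ranges: at 13.5 d.p.c. Suclg1 -0.0256 to 0.00871, Mdh2 -0.00928 to 0.0136, Dlst -0.041 to 0.00469, Idh3a -0.0488 to 0.00438 and Cs -0.000975 to 0.0298, at 17.5 d.p.c. Suclg1 -0.0653 to 0.0669, Mdh2 -0.0675 to 0.00102, Idh3g -0.0616 to 0.0221, Idh3b -0.0751 to 0.0143 and Cs -0.0464 to 0.0288, and at d35 Mdh2 -0.0564 to 0.031 and Sucla2 -0.00142 to 0.0517. The cause was not tested. Sucla2 1430402_at at every age and Idh3b 1441271_at at 13.5 d.p.c. were dim, which limits what can be read from them.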
